A study of Mus musculus with 4 samples.

Results

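The 44 genes described here act in G2 phase and mitosis: cyclins and regulators of CDK1, mitotic kinases, kinesins, spindle proteins, kinetochore proteins, the spindle checkpoint and cytokinesis. They were taken by gene symbol from a list of genes with these functions, and all 44 were found among the 52630 gene identifiers of the table. That list was chosen with earlier results of these data known. The cells were AML12, an immortal mouse hepatocyte line derived from the liver of a mouse strain that expresses a human TGF-alpha transgene, so both groups carry that transgene. One group received lentivirus with a short hairpin RNA against Topors (shTopors), which encodes a ligase for ubiquitin and SUMO, and the other a control hairpin (shCtrl). There were 2 libraries per group. All wells were given 200 µl of virus concentrate, all cells grew with serum, ITS supplement and dexamethasone, and RNA was taken 5 days after infection. The labels name no second Topors hairpin, so an effect of lower Topors and any other effect of this hairpin cannot be told apart. Nothing in them says whether the paired libraries of a group stem from different cultures, so each p-value reflects library-to-library spread that may be purely technical.

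Values are TPM, a transcript level scaled by transcript length and library total. TPM keeps no read depth, so the depth behind each value is unknown. Topors itself stood at 4.31 and 4.65 TPM in shTopors and at 21.9 and 29.2 TPM in shCtrl, so it was lower in both libraries labelled shTopors. Its log2 difference was -2.27 (SE 0.29), with an adjusted p of 0.0823 in limma. All 8 hepatocyte markers were detected in every library, but their levels differed. Alb, the albumin gene, had 4.15 and 402 TPM in shTopors against 118 and 271 TPM in shCtrl. Apoa1 had 113 and 11.5 TPM in shTopors against 12.3 and 28.4 TPM in shCtrl, and Serpina1a had 80.9 and 25.0 TPM in shTopors against 35.9 and 56.6 TPM in shCtrl, so both ran opposite to Alb between the shTopors libraries. Ttr, the transthyretin gene, was lower without overlap, with 195 and 410 TPM in shTopors against 1119 and 2168 TPM in shCtrl (log2 difference -2.46, SE 0.42, adjusted p = 0.129 in limma). Apob was also lower without overlap, with 270 and 144 TPM in shTopors against 319 and 360 TPM in shCtrl. Hnf4a overlapped, with 179 and 95.3 TPM in shTopors against 158 and 156 TPM in shCtrl, and so did the cytokeratin Krt8, with 3218 and 2132 TPM in shTopors against 2193 and 2096 TPM in shCtrl. Krt18, its partner, was higher without overlap, with 3239 and 2168 TPM in shTopors against 2069 and 1719 TPM in shCtrl. The part of these markers in the results was not tested. Of 15 markers of stellate cells, endothelium and leukocytes, 14 were under 1 TPM in every library, and Lrat, Col1a2, Cdh5 and Adgre1 were listed at 0 throughout. Their summed level was 1.31 and 2.34 TPM in shTopors and 2.22 and 1.89 TPM in shCtrl.

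Genes of this module are transcribed in waves: their RNAs are low in G1, accumulate through S phase and are highest in G2 and mitosis. Cyclins A2 and B switch on CDK1, polo-like and Aurora kinases build the spindle, the checkpoint delays anaphase until kinetochores are attached, and the anaphase-promoting complex (APC/C) then marks cyclins and other mitotic proteins for destruction. Hepatocytes of the adult liver rarely divide, whereas AML12 cells proliferate in culture. In RNA from whole cultures, more cells in G2 and mitosis and more of these transcripts in each such cell cannot be told apart.

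Every member had a higher level in the shTopors cells than in the shCtrl cells on average, and the size of the difference depended strongly on which shTopors library was read. Summed over the 44 genes, transcript levels were 1036 TPM in shTopors 1 and 550 TPM in shTopors 2, against 291 TPM in shCtrl 1 and 383 TPM in shCtrl 2. The ratio of group means ran from 1.46 for Incenp to 3.44 for Cdc25c with a median of 2.36, and it was at least 2 in 36 of the 44. No member passed limma's test at an adjusted p of 0.05 over the 13509 genes examined, a call that 0.0074% of all tested genes reached as higher and 0.0296% as lower. The smallest adjusted p among the members was 0.177 (limma, shared by Birc5 and Bub1) and the largest was 0.53 (Incenp). At an unadjusted p under 0.05, 36 members were higher and none lower, where 3.98% of all tested genes were higher and 10.7% lower. That count depended on the libraries: it was 24 without shTopors 1 (5.31% of all tested genes), 42 without shTopors 2 (9.1%), 4 without shCtrl 1 (0.985%) and 23 without shCtrl 2 (1.97%). It was 21 when no filter on low values was applied, where 2.63% of 24900 genes were higher.

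The groups did not overlap for 42 of the 44 members, each with both shTopors libraries above both shCtrl libraries. This pattern held for 14.6% of all tested genes, and the opposite pattern, which no member showed, held for 35.2%. A log2 difference above 0 was found in all 44 members and in 34.1% of all tested genes. On the log2(TPM + 1) scale, where fold changes of weakly expressed genes are compressed, the members' median difference was 1.08 while that of all genes was -0.18, an excess of 1.27. The plot of log2 differences shows the members to the right of most genes: a difference at least as large as that of the member with the smallest one, Incenp, was found in 9.19% of all tested genes, and for the member with the largest one, Ube2c, in 0.489%. Median-of-ratios scaling and quantile normalization, which moved the all-gene median to -0.02 and -0.01, left all 44 differences positive. No member had a shCtrl mean under 1 TPM, the filter applied to the mean of the 4 libraries, so none was tested only because of its level in shTopors.

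**Figure D1:**
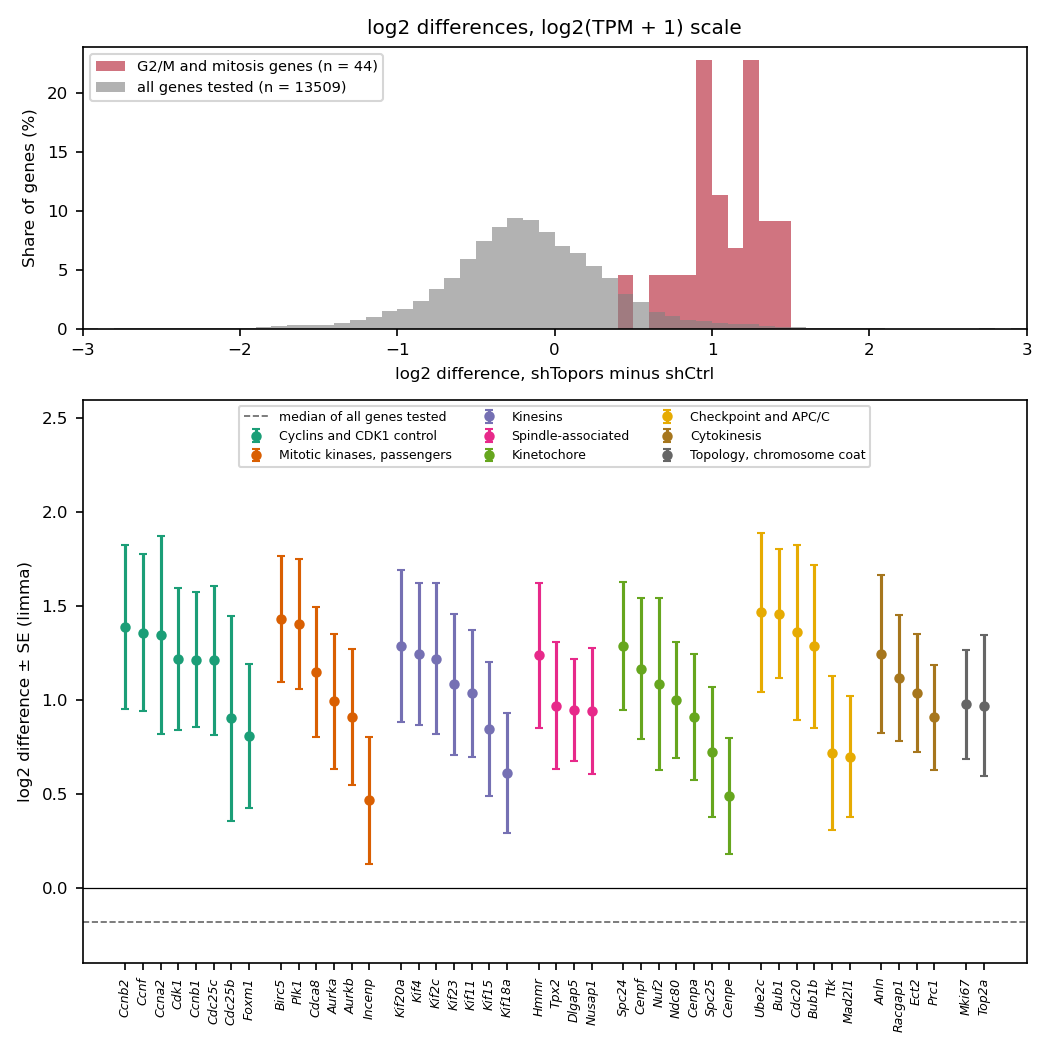
Upper panel: share of genes (%) in bins of the log2 difference, shTopors minus shCtrl, for the 44 members and for all 13509 genes tested, cropped at 3 on either side. Lower panel: each member's log2 difference with limma's standard error, grouped by role, with the all-gene median of -0.18 as a dashed line. All 44 members lie above 0, between 0.46 (Incenp) and 1.47 (Ube2c).

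The libraries followed a constant order over most of the module. In 41 of the 44 genes shTopors 1 was highest, shTopors 2 next and both shCtrl libraries lowest, an order seen in 9.73% of all tested genes. In 43 members shTopors 1 was above shTopors 2, against 48.3% of all tested genes, and in 40 shCtrl 2 was above shCtrl 1, against 71.2%. Relative to the shCtrl mean, the median ratio of the members was 3.23 in shTopors 1 and 1.75 in shTopors 2. At least a 2-fold ratio was reached by 41 members in shTopors 1 and by 6 in shTopors 2. Left out in turn, the shTopors libraries gave different calls in limma: without shTopors 2, 41 members passed an adjusted p of 0.05 as higher, as did 5.09% of all tested genes, and the median log2 difference was 1.55. Without shTopors 1, 2 members passed (Bub1 and Birc5), as did 1.82% of all tested genes, and the median was 0.73. In those fits the single remaining shTopors library is assumed to vary like the shCtrl pair, and without either shCtrl library no member passed.

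**Figure D2:**
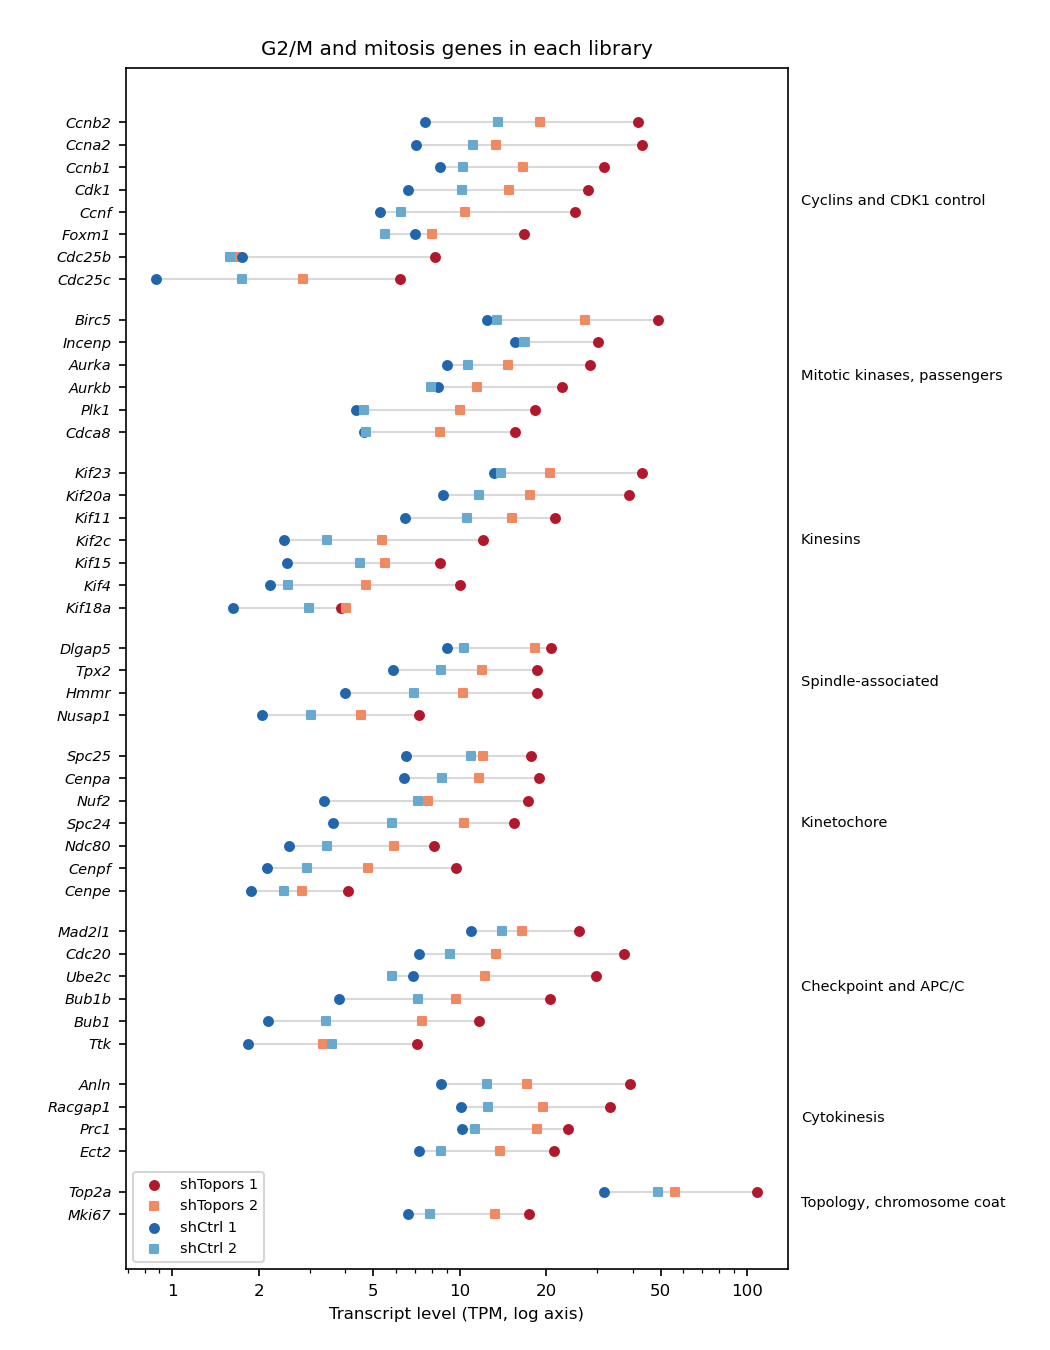
Transcript level (TPM, log axis) of each of the 44 members in each library, grouped by role and ordered by mean level within a role. Red and orange points are shTopors 1 and 2, dark and light blue points shCtrl 1 and 2. The groups meet in Cdc25b and Ttk and are apart in the other 42 members. In Kif18a shTopors 2 lies above shTopors 1.

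The promoters of the module were also described by their sequence, and their part in the transcript levels was not tested. A pair of short elements is known from promoters of G2/M genes: the CCAAT box, bound by NF-Y, and the cell cycle homology element TTTGAA, bound by the MuvB complex, which represses these genes in resting cells together with the p130 protein and activates them with B-MYB and FOXM1. RefSeq windows (build GRCm38.p6, 250 bases before to 50 after the start site) were found for 35 of the 44 genes. TTTGAA occurred on either strand in 26 of these 35 genes (74.3%) and in 20.2% of all 27025 genes with a window. CCAAT, likewise on either strand, occurred in 26 (74.3%) and in 41.1% of all genes, and both were present in 22 (62.9%) and in 7.97% of all genes. Matches to the 2 motifs shared a base in 1 member, Cdca8. Among the other kinetochore, spindle and cytokinesis genes described further on, 25 of 55 genes with a window held TTTGAA (45.5%), and among G1/S and replication genes 6 of 35 (17.1%). A match is a description of letters in the window and not a measured binding site.

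The windows of 5 members that hold both motifs are printed in the sense of the gene, 5′ to 3′, with every match to either motif or its reverse complement in capitals. They are the first in alphabetical order and stand for an Aurora kinase, a spindle checkpoint protein, a pair of cyclins and an APC/C activator. They lie at chr2:172370521-172370820 (minus strand, Aurka), chr2:118597961-118598260 (plus strand, Bub1b), chr9:70421505-70421804 (minus strand, Ccnb2), chr17:24251360-24251659 (minus strand, Ccnf) and chr4:118437294-118437593 (minus strand, Cdc20).
Aurka: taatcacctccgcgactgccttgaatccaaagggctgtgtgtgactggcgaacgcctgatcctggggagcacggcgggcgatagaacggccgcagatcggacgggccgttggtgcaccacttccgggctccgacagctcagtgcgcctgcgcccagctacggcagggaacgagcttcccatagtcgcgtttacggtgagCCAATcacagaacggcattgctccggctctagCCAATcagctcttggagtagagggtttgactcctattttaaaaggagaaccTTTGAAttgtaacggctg
Bub1b: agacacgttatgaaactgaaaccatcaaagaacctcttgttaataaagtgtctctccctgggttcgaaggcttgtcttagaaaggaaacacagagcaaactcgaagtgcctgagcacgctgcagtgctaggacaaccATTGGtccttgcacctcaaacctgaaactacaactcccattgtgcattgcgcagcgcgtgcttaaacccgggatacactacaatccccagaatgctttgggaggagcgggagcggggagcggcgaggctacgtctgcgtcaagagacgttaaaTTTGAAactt
Ccnb2: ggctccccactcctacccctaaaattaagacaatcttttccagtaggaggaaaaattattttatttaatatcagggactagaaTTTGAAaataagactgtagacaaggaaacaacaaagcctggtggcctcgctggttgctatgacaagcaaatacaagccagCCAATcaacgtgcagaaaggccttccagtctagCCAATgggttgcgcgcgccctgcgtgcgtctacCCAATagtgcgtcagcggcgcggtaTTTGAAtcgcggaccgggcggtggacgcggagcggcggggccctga
Ccnf: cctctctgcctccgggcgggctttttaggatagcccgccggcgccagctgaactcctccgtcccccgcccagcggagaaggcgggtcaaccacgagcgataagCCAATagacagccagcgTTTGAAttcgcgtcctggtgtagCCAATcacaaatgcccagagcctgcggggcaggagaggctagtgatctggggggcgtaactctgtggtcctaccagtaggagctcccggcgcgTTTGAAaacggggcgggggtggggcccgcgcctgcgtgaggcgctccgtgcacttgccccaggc
Cdc20: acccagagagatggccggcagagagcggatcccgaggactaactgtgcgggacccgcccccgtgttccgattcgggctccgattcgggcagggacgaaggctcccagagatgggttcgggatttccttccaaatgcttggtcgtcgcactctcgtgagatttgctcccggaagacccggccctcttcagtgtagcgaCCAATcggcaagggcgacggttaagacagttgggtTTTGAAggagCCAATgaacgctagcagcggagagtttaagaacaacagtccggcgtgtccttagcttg
In Ccnb2 the motif CCAAT stood 3 times before the start site, first bases at -87, -54 and -21, and TTTGAA followed at 5, with a further match at -167. In Ccnf the TTTGAA match nearest to the start lay at -14, and in Cdc20 it lay at -18 between CCAAT matches at -53 and -8. In Aurka and Bub1b it lay after the start, at 33 and 41. In 30 of the 35 windows the bases from 21 to 50 lay in a GENCODE transcript of the gene, so the start is less certain in the rest. Over all members with a window, 25 of 34 TTTGAA matches (73.5%) lay within 50 bases of the start, compared with 24.8% of such matches in all genes. For CCAAT these shares were 32.8% and 28.3%.

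**Figure D3:**
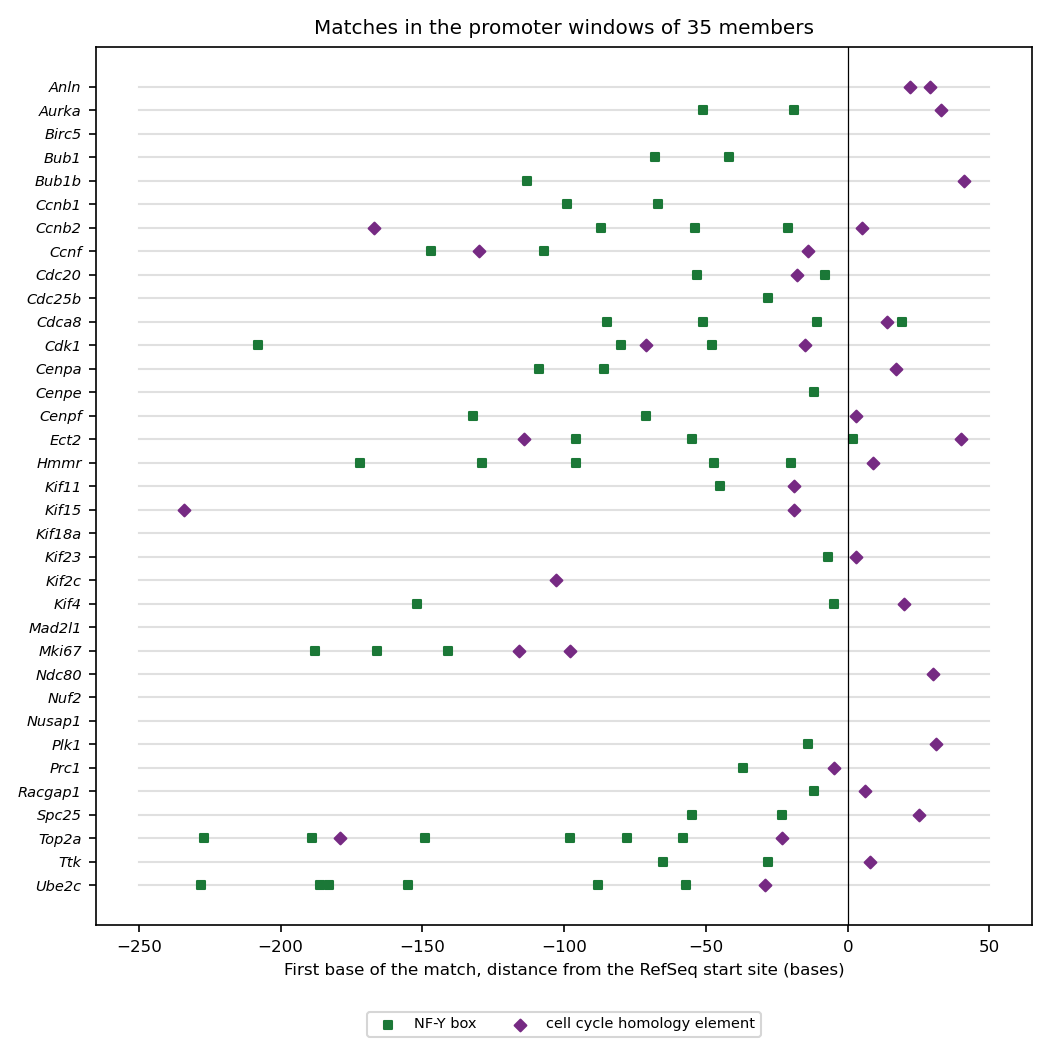
Position of each match to CCAAT (squares, NF-Y box) and TTTGAA (diamonds, cell cycle homology element) in the promoter windows of 35 members, given as the distance of its first base from the RefSeq start site in bases. Squares lie mostly before the start, with a median at -68, and diamonds around it, with a median at -1. Rows without a symbol (Birc5, Kif18a, Mad2l1, Nuf2 and Nusap1) held neither motif.

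The 26 members with TTTGAA in the window had a median log2 difference of 1.13 between shTopors and shCtrl, and the 9 without it had 0.94, ranges 0.72 to 1.47 and 0.49 to 1.46. These ranges overlap almost fully. The members with no TTTGAA match include both Bub1, with one of the largest differences, and Cenpe, with one of the smallest.

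Among cyclins and regulators of CDK1, 7 of 8 genes had groups that did not overlap, with a median log2 difference of 1.22. Ccnb2, a mitotic cyclin and the member of this role with the highest level, had 41.6 and 19.1 TPM in shTopors against 7.56 and 13.6 TPM in shCtrl. It also had the largest difference of the role, 1.39 (SE 0.44, adjusted p = 0.244 in limma). Ccnb1, the other B cyclin, had 31.9 and 16.6 TPM in shTopors against 8.51 and 10.3 TPM in shCtrl. Ccna2, which acts in S phase and G2, had 43.1 and 13.3 TPM in shTopors against 7.05 and 11.2 TPM in shCtrl, so that its value in shTopors 2 was close to that in shCtrl 2. Cdk1, the kinase these cyclins activate, had 27.9 and 14.9 TPM in shTopors against 6.58 and 10.2 TPM in shCtrl. Ccnf, whose product is an F-box protein of a ubiquitin ligase, had 25.2 and 10.4 TPM in shTopors against 5.28 and 6.27 TPM in shCtrl. In all of these genes the lowest value belonged to shCtrl 1 and the highest to shTopors 1.

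The phosphatases that remove the inhibitory phosphates from CDK1 differed from each other. Cdc25a, which is outside the module, had 37.6 and 25.8 TPM in shTopors against 34.9 and 39.8 TPM in shCtrl. Its groups overlapped, with a log2 difference of -0.25 (SE 0.29). Cdc25c had 6.19 and 2.84 TPM in shTopors against 0.877 and 1.75 TPM in shCtrl, with no overlap. Cdc25b had 8.22 TPM in shTopors 1 and 1.69 TPM in shTopors 2, against 1.75 and 1.58 TPM in shCtrl, so the difference of its group means rests on shTopors 1. Its log2 difference was 0.90 (SE 0.55, adjusted p = 0.467 in limma) with all libraries and 0.01 without shTopors 1. Foxm1, the transcription factor that activates many genes of the module, had the smallest difference of the role, 0.81 (SE 0.38), with 16.8 and 8.01 TPM in shTopors against 7.01 and 5.51 TPM in shCtrl.

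In the kinases and the chromosomal passenger complex, which corrects faulty kinetochore attachments, no member had overlapping groups, and the shCtrl libraries lay close together. Birc5, the survivin subunit of the complex, had the highest level and the largest difference of this role, with 48.9 and 27.4 TPM in shTopors against 12.5 and 13.5 TPM in shCtrl. Its log2 difference was 1.43 (SE 0.33, adjusted p = 0.177 in limma). Plk1, the polo-like kinase of mitotic entry, had 18.2 and 10.0 TPM in shTopors against 4.36 and 4.65 TPM in shCtrl. Cdca8, which encodes the borealin subunit, had 15.6 and 8.55 TPM in shTopors against 4.64 and 4.70 TPM in shCtrl. For these genes even the lower shTopors library was well clear of the shCtrl pair, by a factor of 2.16 over the higher shCtrl value in Plk1 and 1.82 in Cdca8.

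Aurora kinase genes had smaller differences. Aurka, of the spindle poles, had 28.5 and 14.7 TPM in shTopors against 9.03 and 10.7 TPM in shCtrl. Aurkb, the kinase of the passenger complex, had 22.7 and 11.5 TPM in shTopors against 8.37 and 7.97 TPM in shCtrl. Incenp, the scaffold on which that complex assembles, had 30.4 and 16.9 TPM in shTopors against 15.6 and 16.8 TPM in shCtrl. Its shTopors 2 value exceeded the higher shCtrl value by less than 1%, so its groups all but touch. The log2 difference of Incenp was 0.46 (SE 0.34), the smallest of all 44, and 0.06 without shTopors 1. The subunits of this one complex therefore ranged from the smallest difference in the module to one of the largest.

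All 7 kinesin genes had groups that did not overlap, with a median log2 difference of 1.08. Kif23, a motor of the central spindle, had the highest level of the role, with 42.9 and 20.6 TPM in shTopors against 13.2 and 13.9 TPM in shCtrl. Kif20a, which also acts at the central spindle, had the largest difference, with 39.0 and 17.5 TPM in shTopors against 8.75 and 11.7 TPM in shCtrl (log2 difference 1.29, SE 0.41, adjusted p = 0.244 in limma). Kif11, the motor that pushes spindle poles apart, had 21.4 and 15.2 TPM in shTopors against 6.43 and 10.6 TPM in shCtrl. The chromokinesin Kif4 and the microtubule-depolymerizing Kif2c were less abundant, with ratios of group means of 3.13 and 2.95. Kif15, which assists Kif11, had a ratio of 2.01.

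Kif18a, which dampens chromosome movements at the metaphase plate, stood apart from the other kinesins. It had 3.85 and 4.02 TPM in shTopors against 1.62 and 2.98 TPM in shCtrl, a log2 difference of 0.61 (SE 0.32, adjusted p = 0.42 in limma). It was the one member in which shTopors 2 was above shTopors 1, by a factor of 1.04.

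The 4 genes of spindle-associated proteins had groups that did not overlap and a median log2 difference of 0.96. Dlgap5, which stabilizes kinetochore fibres, had the highest level, with 20.8 and 18.3 TPM in shTopors against 9.01 and 10.3 TPM in shCtrl. Its shTopors libraries differed little, with a ratio of shTopors 2 to shTopors 1 of 0.883, where the median over all members was 0.541. Hmmr had the largest difference of the role, 1.24 (SE 0.39), with 18.5 and 10.3 TPM in shTopors against 4.0 and 6.93 TPM in shCtrl. Nusap1 had the smallest, 0.94 (SE 0.33), with 7.24 and 4.52 TPM in shTopors against 2.05 and 3.05 TPM in shCtrl. Tpx2, the activator of Aurora A, had 18.5 and 12 TPM in shTopors against 5.86 and 8.63 TPM in shCtrl.

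All 7 kinetochore genes had groups that did not overlap, with a median log2 difference of 1.0. The 4 subunits of the NDC80 complex, the microtubule anchor of the kinetochore, were not equally separated. Spc24 had the largest difference of the role, 1.29 (SE 0.34, adjusted p = 0.215 in limma), with 15.5 and 10.3 TPM in shTopors against 3.62 and 5.79 TPM in shCtrl. Its partner Spc25, the most abundant of the role, had 17.7 and 12 TPM in shTopors against 6.50 and 10.9 TPM in shCtrl, a log2 difference of 0.72 (SE 0.35). Nuf2 had 17.2 and 7.74 TPM in shTopors against 3.37 and 7.14 TPM in shCtrl, and shTopors 2 was nearly level with shCtrl 2. Ndc80 had 8.17 and 5.90 TPM in shTopors against 2.54 and 3.46 TPM in shCtrl, clear of the shCtrl pair by a factor of 1.70.

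Cenpa, the histone H3 variant that marks centromeres, had 19.0 and 11.7 TPM in shTopors against 6.41 and 8.69 TPM in shCtrl. Cenpf had 9.73 and 4.79 TPM in shTopors against 2.13 and 2.93 TPM in shCtrl. Cenpe, a kinesin that moves chromosomes to the spindle equator, had the smallest difference of the role, 0.49 (SE 0.31, adjusted p = 0.481 in limma), with 4.09 and 2.82 TPM in shTopors against 1.87 and 2.44 TPM in shCtrl. Cenpe and Kif18a were among the least abundant members.

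Among the checkpoint genes and the partners of the APC/C, 5 of 6 had groups that did not overlap, and this role had the largest median log2 difference, 1.32. The median is that of a few genes and the roles were not tested against each other. Ube2c, the enzyme that hands ubiquitin to the APC/C, had the largest difference of all members, 1.47 (SE 0.42, adjusted p = 0.224 in limma), with 29.9 and 12.3 TPM in shTopors against 6.87 and 5.80 TPM in shCtrl. Cdc20, the APC/C activator that the checkpoint holds back, had 37.4 and 13.4 TPM in shTopors against 7.20 and 9.24 TPM in shCtrl. Bub1, a checkpoint kinase, had 11.7 and 7.37 TPM in shTopors against 2.16 and 3.43 TPM in shCtrl, a log2 difference of 1.46 (SE 0.34). Bub1 was clear of the shCtrl pair in both shTopors libraries, with ratios to the shCtrl mean of 4.17 and 2.64.

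The remaining checkpoint genes had smaller or overlapping differences. Bub1b, the BUBR1 gene, had 20.7 and 9.71 TPM in shTopors against 3.80 and 7.16 TPM in shCtrl. Ttk, the MPS1 kinase, had 7.11 and 3.35 TPM in shTopors against 1.84 and 3.61 TPM in shCtrl, with shTopors 2 between the shCtrl libraries. Mad2l1, which encodes the Cdc20 inhibitor MAD2 and was the most abundant gene of the role, had the smallest difference of the role, 0.70 (SE 0.32, adjusted p = 0.373 in limma), with 25.9 and 16.5 TPM in shTopors against 10.9 and 14.1 TPM in shCtrl.

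The 4 cytokinesis genes had groups that did not overlap and a median log2 difference of 1.08. Anln, a scaffold of the contractile ring, had the highest level and the largest difference, with 39.1 and 17.1 TPM in shTopors against 8.64 and 12.4 TPM in shCtrl (log2 difference 1.25, SE 0.42). Racgap1, a subunit of centralspindlin together with the kinesin Kif23, had 33.4 and 19.4 TPM in shTopors against 10.1 and 12.5 TPM in shCtrl. Ect2, which centralspindlin recruits to the division plane, had 21.3 and 13.8 TPM in shTopors against 7.22 and 8.59 TPM in shCtrl. Prc1, which bundles microtubules of the central spindle, had the smallest difference, 0.91 (SE 0.28, adjusted p = 0.24 in limma), with 23.9 and 18.5 TPM in shTopors against 10.2 and 11.3 TPM in shCtrl.

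Top2a and Mki67 complete the module. Top2a, the topoisomerase that untangles sister chromatids, was the most abundant member in every library, with 109 and 56.2 TPM in shTopors against 31.8 and 48.9 TPM in shCtrl (log2 difference 0.97, SE 0.38). Mki67, whose Ki-67 protein coats mitotic chromosomes and is used to stain dividing cells, had 17.4 and 13.3 TPM in shTopors against 6.63 and 7.88 TPM in shCtrl (log2 difference 0.98, SE 0.29, adjusted p = 0.231 in limma).

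The per-library medians of the roles kept the same order of libraries throughout. Relative to the mean of the shCtrl libraries, the role medians lay between 1.24 and 1.78 on the log2 scale in shTopors 1 and between 0.58 and 0.76 in shTopors 2. The roles were thus closer to each other in shTopors 2. The spread between the shTopors libraries was widest for cyclins and CDK1 control, where the median log2 difference of shTopors 1 minus shTopors 2 was 1.03, and narrowest for kinetochore genes, where it was 0.54. Over single genes the ratio of shTopors 1 to shTopors 2 went up to 4.86 in Cdc25b.

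**Figure D4:**
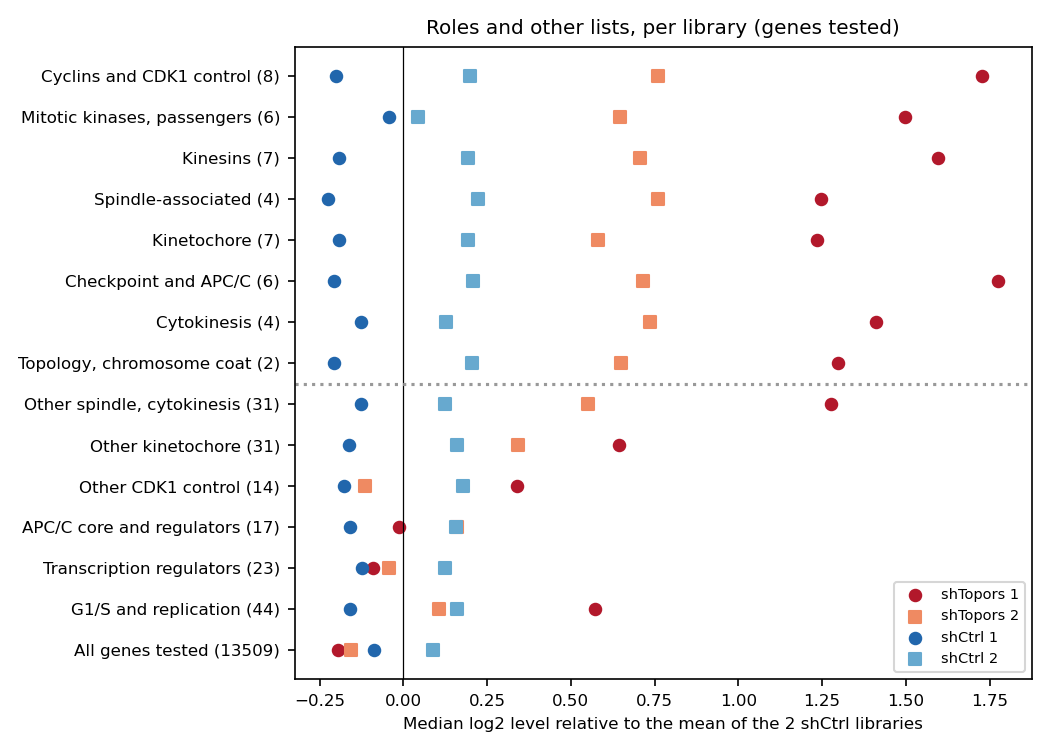
Median log2(TPM + 1) of each role and of 6 other lists in each library, relative to the mean of the 2 shCtrl libraries, with the number of tested genes in parentheses. Red and orange are shTopors 1 and 2, dark and light blue shCtrl 1 and 2. Above the dotted line, both shTopors libraries lie to the right of both shCtrl libraries in all 8 roles. In the APC/C list shTopors 2 and shCtrl 2 coincide at 0.16.

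Other genes of mitosis were compared from lists chosen by function, with earlier results of these data known. Of 31 tested spindle and cytokinesis genes outside the module, 25 were higher with no overlap of the groups and 1 was lower. Among all tested genes, 14.6% were higher and 35.2% lower in this way. The median log2 difference of the list was 0.91. At an unadjusted p under 0.05 in limma, 18 of the 31 were higher and 1 lower, where 3.98% of all tested genes were higher and 10.7% lower. None passed after adjustment with all libraries. Troap, counted in both the 25 and the 18, had 3.76 and 1.51 TPM in shTopors against 0.663 and 1.01 TPM in shCtrl. Its shCtrl mean of 0.834 TPM was under the filter of 1 TPM, so it was tested only because of its level in shTopors. Fewer genes of the list were higher at the unadjusted threshold without shTopors 1 or shCtrl 2, and more without shTopors 2. Without shCtrl 1 nearly all of these calls were lost. After adjustment, genes of the list passed in the fits without a shTopors library and in neither fit without a shCtrl library. The median log2 difference was 0.55 without shTopors 1, 1.28 without shTopors 2, 0.78 without shCtrl 1 and 1.03 without shCtrl 2. The excess of their median over all genes, 1.09, was 0.707 without shTopors 1 and 0.64 with a pseudocount of 5. Pttg1, the securin that holds separase inactive, had 32.8 and 16.3 TPM in shTopors against 5.14 and 9.47 TPM in shCtrl (log2 difference 1.59, SE 0.42, adjusted p = 0.215 in limma). Haus4, a subunit of the augmin complex, went the other way, with 10.4 and 13.7 TPM in shTopors against 24.1 and 24.8 TPM in shCtrl (log2 difference -0.98, SE 0.28, adjusted p = 0.224 in limma).

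Of 31 tested kinetochore and centromere genes outside the module, 21 were higher with no overlap and 1 was lower. Among all tested genes, 14.6% were higher and 35.2% lower in this way. The median log2 difference of the list was 0.52. The median was 0.34 without shTopors 1, 0.64 without shTopors 2, 0.32 without shCtrl 1 and 0.72 without shCtrl 2. In limma 8 were higher at an unadjusted p under 0.05, where 3.98% of all tested genes were higher. More were higher without either shTopors library, fewer without shCtrl 2, and no call was kept without shCtrl 1. The share of all tested genes moved the same way. None passed after adjustment with all libraries. Ska3, which couples kinetochores to microtubules, had 7.43 and 4.27 TPM in shTopors against 1.46 and 2.29 TPM in shCtrl, a log2 difference of 1.23 (SE 0.35). Dsn1, of the MIS12 complex, had the smallest, -0.40 (SE 0.30), with 8.26 and 9.72 TPM in shTopors against 10.1 and 14.6 TPM in shCtrl. Other regulators of CDK1 entry, 14 in all, had a median log2 difference of 0.11. Without overlap 5 were higher and 1 lower, where 14.6% of all tested genes were higher and 35.2% lower. In limma 4 were higher at an unadjusted p under 0.05, where 3.98% of all tested genes were higher. That number was smaller without shCtrl 2 or shTopors 1, and no call was kept without shCtrl 1. None passed after adjustment with all libraries. The median was -0.11 without shTopors 1, 0.34 without shTopors 2, -0.08 without shCtrl 1 and 0.35 without shCtrl 2. Bora, an activator of Aurora A and Plk1, had 8.19 and 5.66 TPM in shTopors against 2.77 and 3.46 TPM in shCtrl, the largest of these at 0.93 (SE 0.31). Ccnh, of the CDK-activating kinase, had the smallest, -0.31 (SE 0.30), with 8.54 and 6.97 TPM in shTopors against 8.37 and 11.5 TPM in shCtrl.

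The subunits and regulators of the APC/C had no common direction, with 4 of 17 higher and 5 lower without overlap. Among all tested genes, 14.6% were higher and 35.2% lower in this way. The list had a median log2 difference of 0.11, which was -0.01 without shTopors 2, -0.04 without shCtrl 1 and 0.21 without shCtrl 2. At an unadjusted p under 0.05 in limma 1 was higher and none lower, where 3.98% of all tested genes were higher and 10.7% lower. That call was not kept without either shCtrl library. None passed after adjustment with all libraries. Without shTopors 1, 2 were lower at an unadjusted p under 0.05 and both passed after adjustment, as did 6.67% of all tested genes. Fbxo5, the APC/C inhibitor EMI1, had the largest difference, 0.75 (SE 0.30), with 7.17 and 6.60 TPM in shTopors against 3.09 and 4.38 TPM in shCtrl. Anapc13, a small structural subunit, had the smallest, -0.87 (SE 0.40), with 48.8 and 20.4 TPM in shTopors against 57.4 and 60.2 TPM in shCtrl. Whether the subunit genes differ from the partners Cdc20 and Ube2c was not tested.

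Genes that regulate transcription of the module had a median log2 difference of -0.08 over 23 tested genes, with 4 higher and 4 lower without overlap, where 14.6% of all tested genes were higher and 35.2% lower. The median was -0.04 without shTopors 1, -0.09 without shTopors 2, -0.21 without shCtrl 1 and -0.01 without shCtrl 2. At an unadjusted p under 0.05 in limma none was higher and 2 were lower, where 3.98% of all tested genes were higher and 10.7% lower. Without shTopors 1, 4 were lower (15.2% of all tested genes) and none higher, and without shTopors 2, 3 were higher and 3 lower (19.7% of all tested genes). Without shCtrl 1, 1 was lower (5.77% of all tested genes), and without shCtrl 2 none was (3.17%). None passed after adjustment with all libraries. Mybl2, the B-MYB gene, had 5.94 and 2.30 TPM in shTopors against 1.99 and 2.09 TPM in shCtrl. E2f7, a repressor of E2F targets, had the largest difference of the list, 0.72 (SE 0.34), with 3.70 and 1.82 TPM in shTopors against 1.29 and 1.13 TPM in shCtrl. Its relative E2f8 had 3.75 and 3.46 TPM in shTopors against 2.11 and 2.76 TPM in shCtrl. E2f1, an activator of S phase genes, had 9.79 and 5.63 TPM in shTopors against 9.09 and 8.76 TPM in shCtrl, with no common direction. Rbl1, the p107 gene, had 8.31 and 8.01 TPM in shTopors against 4.92 and 7.30 TPM in shCtrl.

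The 4 regulators that were lower without overlap were Rbl2, Nfyc, Nfya and Tfdp2, named after their values were seen. The same pattern held for 35.2% of all tested genes, a larger share than among the regulators. Rbl2, which encodes the p130 protein of the repressive complex, had 24.6 and 19.2 TPM in shTopors against 37.1 and 46.1 TPM in shCtrl (log2 difference -0.90, SE 0.28, adjusted p = 0.238 in limma). Nfyc, an NF-Y subunit, had 14.1 and 12.1 TPM in shTopors against 21.2 and 22.3 TPM in shCtrl (log2 difference -0.69, SE 0.27, adjusted p = 0.306 in limma). Nfya, another NF-Y subunit, had 16.7 and 25.8 TPM in shTopors against 29.4 and 28.9 TPM in shCtrl (log2 difference -0.47, SE 0.30). The remaining NF-Y subunit gene, Nfyb, overlapped, with 33.0 and 37.5 TPM in shTopors against 31.3 and 43.3 TPM in shCtrl. Tfdp2, a dimer partner of E2F proteins, had 24.3 and 20.2 TPM in shTopors against 34.1 and 31.5 TPM in shCtrl (log2 difference -0.55, SE 0.26). Cdkn1a, the p21 inhibitor of cyclin-dependent kinases, had 89.4 and 19.3 TPM in shTopors against 132 and 77.2 TPM in shCtrl, the smallest log2 difference of the list at -1.25 (SE 0.65). The groups of Cdkn1a overlap, since shTopors 1 lies between the shCtrl libraries.

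A list of 44 G1/S and replication genes had a smaller median log2 difference, 0.31. Without overlap 19 of these genes were higher and none lower, where 14.6% of all tested genes were higher and 35.2% lower. In limma 6 were higher at an unadjusted p under 0.05, where 3.98% of all tested genes were higher. More were higher without shTopors 2, fewer without shTopors 1 or shCtrl 2, and no call was kept without shCtrl 1. None passed after adjustment with all libraries. The median was 0.11 without shTopors 1, 0.57 without shTopors 2, 0.15 without shCtrl 1 and 0.48 without shCtrl 2. The excess of the median over all genes was 0.495, and 0.262 without shTopors 1 and 0.766 without shTopors 2. In shTopors 2 its median relative to the shCtrl mean was 0.11, below the 0.16 of shCtrl 2, whereas that of the 44 G2/M and mitosis genes was 0.73. In shTopors 1 the medians were 0.57 for the G1/S list and 1.55 for the G2/M and mitosis genes. Mcm10, a replication factor, had the largest difference of the list, with 12.6 and 7.18 TPM in shTopors against 3.12 and 3.83 TPM in shCtrl, and Pola1, a DNA polymerase alpha subunit, the smallest, with 15.7 and 13.4 TPM in shTopors against 13.4 and 24.0 TPM in shCtrl. No test compared the G1/S list with the G2/M and mitosis genes.

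Positions and possible read sharing were checked in GENCODE M21 (mm10). The members lie on 17 chromosomes, with 9 on chromosome 2 and 6 on chromosome 9. Exons of 12 members overlap a gene on the opposite strand and no label says whether reads were counted by strand. For 5 of the 12 that partner had a mean of at least 5 TPM. Cdc23, which overlaps Kif20a by 1271 exonic bases, had 21.1 and 29.0 TPM in shTopors against 21.2 and 28.5 TPM in shCtrl. Exosc9, which overlaps Ccna2, had 14.0 and 21 TPM in shTopors against 16.3 and 20.4 TPM in shCtrl. Pdzd11, which overlaps Kif4, had 29.8 and 26.6 TPM in shTopors against 31.8 and 34.1 TPM in shCtrl. Elovl1 overlaps Cdc20 and had 32.0 and 25.1 TPM in shTopors against 25.2 and 23.6 TPM in shCtrl. Rccd1 overlaps Prc1 and had 6.42 and 6.57 TPM in shTopors against 6.10 and 7.85 TPM in shCtrl. In none of these partners did both shTopors libraries exceed both shCtrl libraries. Oip5, which overlaps Nusap1 by 172 exonic bases on the opposite strand, was below that level with a mean of 4.45 TPM. It had 7.30 and 5.85 TPM in shTopors against 1.62 and 3.01 TPM in shCtrl. Here both shTopors libraries did exceed both shCtrl libraries. Near-identical copies, mostly processed pseudogenes, were found for 9 members (at least 90% identity over 300 bases or more). Of the copies listed in the table, only an Ndc80 copy reached 1 TPM in any library, with 2.09 and 2.43 TPM in shTopors against 1.81 and 1.99 TPM in shCtrl. Ccnb1 had the most copies, all at or under 0.201 TPM where listed. Levels of members with copies are uncertain to the extent that reads were shared.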

How the data were processed

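The deposited table gives TPM per gene for 4 libraries of ribosomal RNA-depleted, stranded total RNA, and the authors made its values. HISAT2, StringTie, HTSeq, DESeq2 and mm10 appear in the submitters' processing notes, with neither versions nor roles, and the program behind the TPM and its strand setting are not stated in the labels. The 52633 rows held 52630 identifiers, and values of 3 repeated identifiers were summed. Because TPM is relative, a shift in abundant genes moves all others. The test was limma 3.58.1 (R 4.3.3, mean-variance trend) on log2(TPM + 1), shTopors minus shCtrl, over 13509 genes whose mean reached 1 TPM, with Benjamini-Hochberg adjustment over all of them and a threshold of 0.05. SE is limma's. The fit was tested on simulated data. The members and lists were chosen with earlier results of these data known. In each role the gene with the highest level and those with the largest and smallest differences are given, plus others a sentence rests on; of other lists, the extremes and selected regulators. Promoter windows came from RefSeq, gene positions and transcripts from GENCODE M21, and copies from minimap2 2.31-r1302. Alternatives were other pseudocounts, filters, scalings, variance models, blocking on the replicate number and leaving out each library.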

Additional observations from a re-analysis of the deposited data

How the results depend on the processing

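All 44 log2 differences stayed positive under each of the 13 alternatives in which they were tested (36 were tested when the filter was raised to 5 TPM). The count of members past an adjusted p of 0.05 in limma was 0 under every alternative that kept all libraries, with a range of 0 to 41 when 1 library was left out. At an unadjusted p under 0.05, 21 members were higher with no filter on low values and from 4 (without shCtrl 1) to 42 with 1 library left out. The members' median excess over all genes was 0.887 with a pseudocount of 5 and from 0.883 to 1.75 with 1 library left out, where their median log2 difference ranged from 0.727 to 1.55. For the other spindle and cytokinesis genes the excess was 1.39 with a pseudocount of 0.1, 0.64 with a pseudocount of 5 and 0.707 to 1.47 with 1 library left out. For G1/S genes it was 0.262 to 0.766 with 1 library left out. Pseudocounts act most on low genes by construction; the cause of the other shifts was not tested. The labels' replicate numbers are shared between groups but nothing ties same-numbered libraries together. Their deviations from the group means correlated at 0.199 over the tested genes. With the replicate number as a block, 35 members were higher at an unadjusted p under 0.05, as were 4.55% of all tested genes. None passed after adjustment in that fit. TPM keeps no depth, so counting error could not be separated from other spread, which matters most for members near 1 TPM such as Cdc25c. With 2 libraries per group, limma's p-values rest on few residual degrees of freedom.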
